A study of Homo sapiens with 6 samples.

Results

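The 4 neurofilament genes of the array, NEFL, NEFM, NEFH and INA, were examined together with VIM, TUBB3, the granin genes CHGB and CHGA, and ENC1 in HEK293 cells. These 9 genes were taken by name, as every probe whose target name in the deposited intensity table is the gene's symbol or an older symbol for it. Each gene had 1 probe, so 9 of the 48701 probes were concerned, out of probes for 16720 named genes, and all 9 matched by current symbol. The study used 6 Illumina bead arrays, 3 of HEK293 cells transfected with pEGFPN3, a plasmid coding for green fluorescent protein alone (GFP 1 to 3), and 3 of cells transfected with the same plasmid carrying human SNRK (SNRK 1 to 3). HEK293 is an established human line made from cultured kidney cells of an embryo. Total RNA was taken 48 hours after transfection by Lipofectamine, so both groups had been exposed to the lipid and the plasmid backbone. Whether the SNRK cells also made the fluorescent protein, alone or joined to SNRK, is not known here. The labels number the replicates but do not say whether they were separate cultures, so p-values refer only to array-to-array spread, part or all of which may be technical.

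Intermediate filaments are rope-like polymers of the cytoskeleton whose subunits differ between cell types. In mature neurons NEFL, NEFM and NEFH form the light, medium and heavy chains of the neurofilament, which fills the axon and sets its calibre, and INA (alpha-internexin) joins them, while VIM (vimentin) is the filament protein of mesenchymal and many cultured cells. TUBB3 is the beta-tubulin used widely as a neuronal marker, the granins CHGA and CHGB are packed into the dense-core vesicles of neuroendocrine cells and neurons, and ENC1 is a BTB-kelch protein of the nervous system. HEK293 cells are known to contain neurofilament proteins despite the kidney origin in their name. SNRK is a serine/threonine kinase of the AMP-activated protein kinase family. The comparison asks whether raising SNRK changed the level of this neuronal set.

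The arrays were alike in brightness. The median intensity lay between 93.8 and 102, and 15133 to 16190 probes per array had a detection p, the chance of so bright a signal among negative controls, under 0.01. The lowest intensity of a detected probe was between 108 and 118. Correlations of log2 values lay between 0.994 and 0.996 within the GFP group, 0.990 and 0.994 within the SNRK group and 0.976 and 0.991 across groups. The SNRK probe itself rose 1.35-fold (limma adjusted p = 0.0219), and this call was lost without GFP 1 (log2 change 0.37, adjusted p = 0.0915), GFP 2 (0.45, 0.0800) or SNRK 1 (0.40, 0.0859). Whether that probe reads the plasmid's transcript is not known here. Among all 14964 kept probes, meaning those detected on every array of 1 or both groups, 12.9% passed an adjusted p of 0.05 (6.88% risen, 6.06% fallen), and below, "rose" and "fell" mean that this threshold was passed.

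Of the 9 genes, 7 were detected on all 6 arrays and were tested. In limma 0 of these 7 rose, TUBB3 and CHGB fell, and 5 did not pass. At an unadjusted p under 0.05 the same 2 of the 7 passed and 0 were higher, a share near the 31.1% of all kept probes (16.1% higher, 15.1% lower). A total of 2 of 7 stands beside the 12.9% of all kept probes that passed, and with so few genes the share cannot be set apart from it. The normalized log2 values of the groups did not overlap for 5 of the 7, against 36.4% among all kept probes. In the deposited intensities, before normalization, 2 of the 7 did not overlap, namely INA and TUBB3, against 32.5% of all kept probes on that scale. NEFH and CHGA did not meet the detection rule and were not tested under it.

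**Figure D1:**
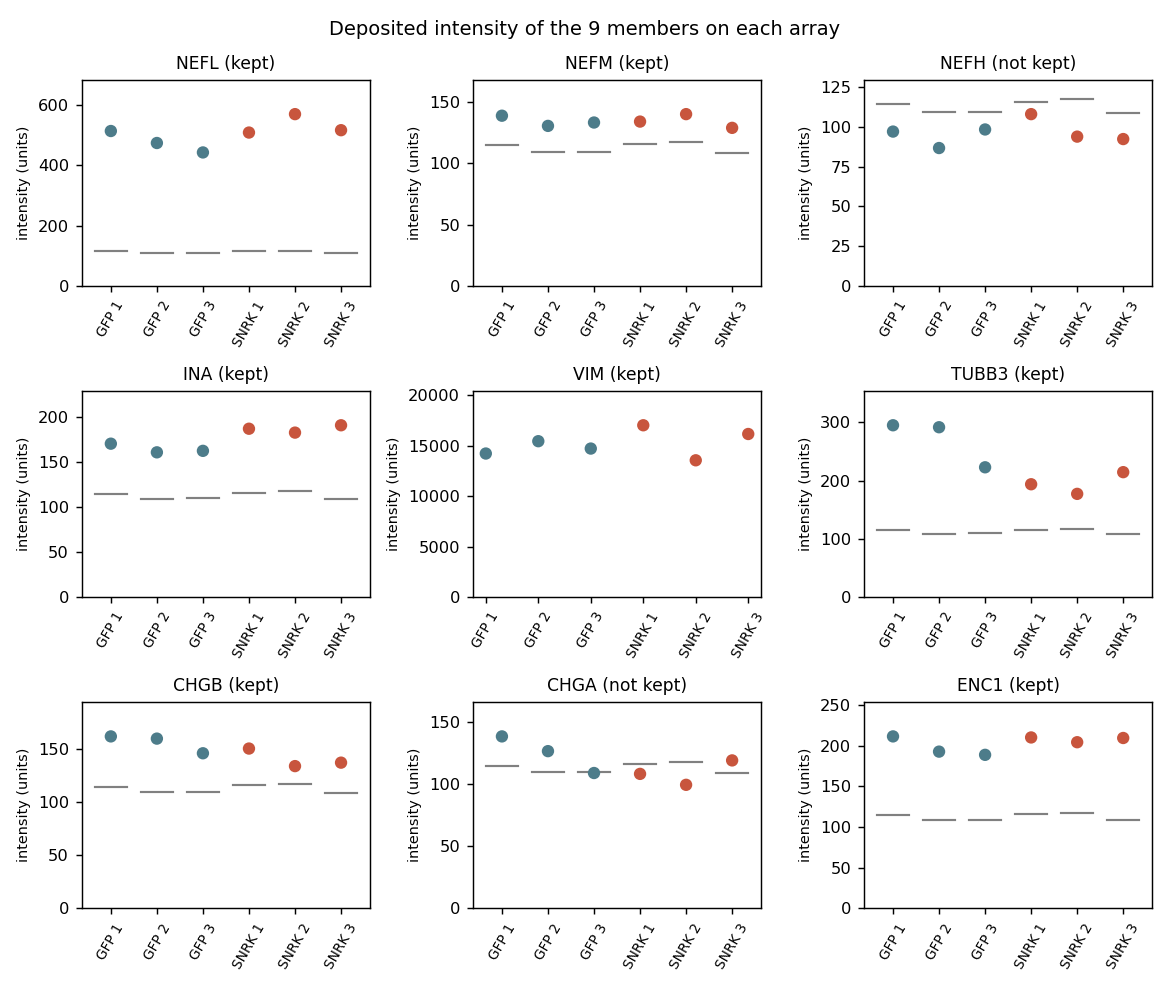
Deposited intensity (vertical axis, array units, from 0) of each of the 9 genes on GFP 1 to 3 (blue) and SNRK 1 to 3 (red), with a grey tick at the lowest intensity of any detected probe on that array, left out for VIM where it would lie on the axis. NEFL, INA, TUBB3, CHGB and ENC1 lie above the ticks on every array, NEFM lies just above them, NEFH lies below them, CHGA crosses them, and TUBB3 is lower on every SNRK array than on any GFP array.

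The light chain gene NEFL was clearly expressed. Its probe, ILMN_1659086, measured 513, 473 and 442 in the GFP group, against 508, 568 and 515 in the SNRK group. On the GFP arrays this was 5.02 to 5.44 times the median of the undetected probes of the same array. SNRK 2 was the brightest and GFP 3 the dimmest, and the groups overlapped by intensity, GFP 1 lying above SNRK 1. After normalization the log2 level was 8.64 ± 0.08 in GFP and 8.84 ± 0.10 in SNRK cells (SD, 3 arrays each), without overlap. The log2 change of 0.20 ± 0.09 (SE) did not pass (limma adjusted p = 0.175), and its 95% interval ran from -0.01 to 0.41. A rise of more than 1.33-fold lay outside that interval.

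The medium chain gene NEFM, whose protein carries a long phosphorylated tail, was detected on all 6 arrays near the limit. Its probe, ILMN_1809632, gave 138, 130 and 133 for GFP 1 to 3 and 134, 140 and 129 for SNRK 1 to 3. These intensities were 1.40 to 1.51 times the median of the undetected probes, and the groups overlapped. After normalization each SNRK value lay below each GFP value. The normalized log2 change was -0.15 ± 0.08 (SE) with an interval from -0.34 to 0.03, and it did not pass (limma adjusted p = 0.240). The NEFM change was -0.07 without background correction, -0.09 with median scaling and -0.03 in the authors' table. By deposited intensity the NEFM mean was 133.9 in GFP and 134.0 in SNRK cells, so the lower SNRK level appeared only after processing. The NEFL and NEFM log2 estimates had opposite signs, and neither passed.

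The heavy chain gene NEFH, which neurons switch on last during maturation, was not detected on any array at a detection p under 0.01. Its probe, ILMN_1705153, measured 97.0, 86.7 and 98.3 in the GFP group, against 108, 93.8 and 92.3 in the SNRK group, all below the lowest detected intensity of their own array. The lowest detection p was 0.0663, on SNRK 1. No level can be read from this probe, and the difference plotted for it below is no measure of change.

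INA was detected on all arrays. Its probe, ILMN_1673704, gave 170, 160 and 162 for GFP 1 to 3 and 187, 182 and 190 for SNRK 1 to 3. Every SNRK array was above every GFP array, both by intensity and after normalization. The log2 level was 6.53 ± 0.05 in GFP and 6.75 ± 0.15 in SNRK cells (SD, 3 arrays each), a change of 0.22 ± 0.10 (SE, interval 0.00 to 0.44). It did not pass over all kept probes (limma adjusted p = 0.162), and it passed under 0 of 16 alternative settings, whose adjusted p ran from 0.0542 with array weights to 0.371. The change was 0.13 without background correction, 0.14 with the maximum likelihood background and 0.07 in the authors' table.

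Vimentin was bright. The VIM probe, ILMN_1782538, measured 14209, 15428 and 14700 in the GFP group, against 17003, 13540 and 16140 in the SNRK group, between 142 and 180 times the median of the undetected probes. SNRK 1 was the highest and SNRK 2 the lowest of the 6, so the SNRK group spanned the GFP group. The log2 change was 0.05 ± 0.10 (SE), with an interval from -0.19 to 0.29 (limma adjusted p = 0.775). Changes beyond 1.22-fold up lay outside this interval.

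TUBB3 fell 1.67-fold in SNRK cells. Its probe, ILMN_1791726, gave 295, 292 and 223 for GFP 1 to 3 and 194, 177 and 215 for SNRK 1 to 3. GFP 1 and GFP 2 stood well above the rest, while GFP 3 and SNRK 3 were the closest pair across the groups. The log2 level was 7.59 ± 0.26 in GFP and 6.85 ± 0.32 in SNRK cells (SD, 3 arrays each), a change of -0.74 ± 0.18 (SE, interval -1.15 to -0.32, limma adjusted p = 0.0343). In RNA from whole cultures, fewer cells with the transcript and less transcript per cell cannot be told apart. The call was lost without GFP 1 (log2 change -0.65, adjusted p = 0.130), GFP 2 (-0.66, 0.124), SNRK 1 (-0.73, 0.104) or SNRK 2 (-0.59, 0.0792), and kept without GFP 3 (-0.88, 0.0267) or SNRK 3 (-0.90, 0.0150). The change was smaller, and called, without background correction (-0.49) and in the authors' table (-0.32).

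The place of GFP 3 and SNRK 3 nearest the other group was shared by many called probes. GFP 3 was the GFP array nearest to the SNRK group in 66.7% of the 907 probes that fell and 73.7% of the 1030 that rose. SNRK 3 was the SNRK array nearest to the GFP group in 51.6% and 61.1% of them. The part of this in the TUBB3 change was not tested. The 3 genes whose 6 values, each taken relative to its own GFP mean, lay closest to those of TUBB3 were CTXN1, TMEM131L and GNG7, with mean absolute differences of 0.03, 0.04 and 0.04 on the log2 scale over the 6 arrays. GNG7 codes for a G protein gamma subunit and CTXN1 for cortexin, a membrane protein known from brain. These were the nearest of all named genes with a kept probe, and fell by 0.76 (CTXN1), 0.69 (TMEM131L) and 0.73 (GNG7) on the log2 scale (limma adjusted p = 0.0255, 0.0290 and 0.0290). As for TUBB3, these 3 calls were lost without GFP 1, GFP 2, SNRK 1 or SNRK 2, with adjusted p between 0.0585 and 0.113. Because the 3 genes were picked for likeness to TUBB3 over all 6 arrays, similar falls and similar losses were built into the choice. They lend no weight to the TUBB3 change.

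A separate probe with the target name TUBB4, ILMN_1682459, was not counted. TUBB4 is an older name of both TUBB3 and TUBB4A in the RefSeq gene table, and the name alone does not settle which is meant. It measured 176, 170 and 190 in the GFP group, against 185, 164 and 200 in the SNRK group, with a log2 change of -0.06 ± 0.17 (SE, limma adjusted p = 0.854). The fall of TUBB3 thus rests on 1 probe.

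CHGB (secretogranin I) fell 1.36-fold, on the edge of the threshold. Its probe, ILMN_1765966, gave 162, 160 and 146 for GFP 1 to 3 and 151, 134 and 137 for SNRK 1 to 3. By intensity the groups overlapped, SNRK 1 lying above GFP 3, and after normalization they did not. The log2 level was 6.39 ± 0.10 in GFP and 5.95 ± 0.22 in SNRK cells (SD, 3 arrays each), a change of -0.44 ± 0.12 (SE, interval -0.73 to -0.16, limma adjusted p = 0.0497). The call was lost without any 1 of the 6 arrays, namely without GFP 1 (log2 change -0.43, adjusted p = 0.157), GFP 2 (-0.41, 0.163), GFP 3 (-0.50, 0.0626), SNRK 1 (-0.54, 0.0720), SNRK 2 (-0.32, 0.0947) or SNRK 3 (-0.48, 0.0529). Without background correction the change shrank to -0.21 (adjusted p = 0.0579), and in the authors' table to -0.12 (0.111).

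CHGA was detected on 2 of 3 GFP arrays and on 1 of 3 SNRK arrays. Its probe, ILMN_1669410, measured 138, 126 and 109 in the GFP group, against 108, 99.3 and 119 in the SNRK group. GFP 1 and GFP 2 were the highest and SNRK 2 the lowest, but SNRK 3 lay above GFP 3, so the groups overlapped. The difference of normalized log2 means was -0.64, with SDs of 0.35 in GFP and 0.47 in SNRK cells. It was not tested under the detection rule, and when all 48701 probes were tested it did not pass (limma adjusted p = 0.310).

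ENC1 was detected on every array. Its probe, ILMN_1779147, gave 212, 193 and 189 for GFP 1 to 3 and 210, 204 and 210 for SNRK 1 to 3. The groups overlapped, GFP 1 being the highest of all. The log2 change was 0.04 ± 0.09 (SE), with an interval from -0.17 to 0.26 (limma adjusted p = 0.791).

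**Figure D2:**
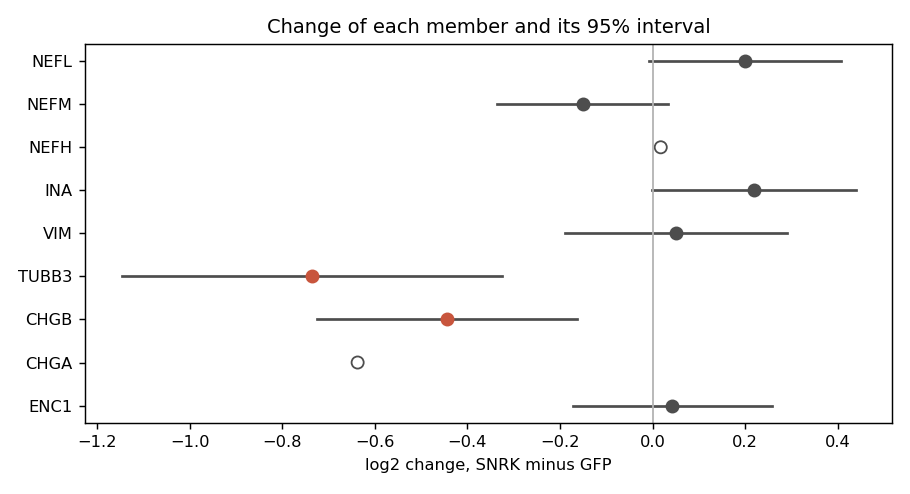
Log2 change, SNRK minus GFP (horizontal axis), of the 9 genes, with the 95% interval from limma as a line for the 7 that were tested (filled, red where the adjusted p was under 0.05) and open circles without interval for NEFH and CHGA. The intervals of TUBB3 (-1.15 to -0.32) and CHGB (-0.73 to -0.16) lie wholly below 0, and those of the other 5 include or touch 0. The NEFH circle comes from a probe detected on no array and is no measure of change.

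Promoter sequences of 4 of the 9 genes (INA, VIM, TUBB3, CHGA) are in the RefSeq promoter table for build GRCh38.p14, as windows of 250 bases before and 50 after a transcript start, all on the plus strand. The TUBB3 windows are shown because this gene fell, that of CHGA as the fellow granin of CHGB, and that of INA as a filament gene whose estimate pointed up. Capitals mark every match, on both strands, to the cyclic AMP response element TGACGTCA, the GC box GGGCGG and the TATA motif TATAA, none of which overlapped another match. Which start these cells used, and where the array probes lie, is not known here.
TUBB3 at chr16:89921675-89921974: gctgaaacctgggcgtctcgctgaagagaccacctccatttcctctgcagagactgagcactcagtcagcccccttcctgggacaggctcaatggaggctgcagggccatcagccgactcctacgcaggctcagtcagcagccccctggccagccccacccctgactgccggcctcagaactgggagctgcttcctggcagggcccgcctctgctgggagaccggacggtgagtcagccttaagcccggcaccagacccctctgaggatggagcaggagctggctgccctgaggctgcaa
TUBB3 at chr16:89923092-89923391: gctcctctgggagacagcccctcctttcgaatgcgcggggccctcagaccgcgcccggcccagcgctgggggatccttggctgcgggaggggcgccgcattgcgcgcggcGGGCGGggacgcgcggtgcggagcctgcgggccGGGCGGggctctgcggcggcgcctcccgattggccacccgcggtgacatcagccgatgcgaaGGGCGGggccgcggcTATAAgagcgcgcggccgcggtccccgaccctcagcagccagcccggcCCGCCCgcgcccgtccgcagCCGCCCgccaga
CHGA at chr14:92922900-92923199: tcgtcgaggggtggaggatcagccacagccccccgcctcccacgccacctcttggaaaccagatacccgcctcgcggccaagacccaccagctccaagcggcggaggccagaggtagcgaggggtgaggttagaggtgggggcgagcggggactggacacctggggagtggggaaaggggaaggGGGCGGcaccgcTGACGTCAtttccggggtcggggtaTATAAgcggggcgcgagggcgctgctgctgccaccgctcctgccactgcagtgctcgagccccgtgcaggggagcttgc
INA at chr10:103276888-103277187: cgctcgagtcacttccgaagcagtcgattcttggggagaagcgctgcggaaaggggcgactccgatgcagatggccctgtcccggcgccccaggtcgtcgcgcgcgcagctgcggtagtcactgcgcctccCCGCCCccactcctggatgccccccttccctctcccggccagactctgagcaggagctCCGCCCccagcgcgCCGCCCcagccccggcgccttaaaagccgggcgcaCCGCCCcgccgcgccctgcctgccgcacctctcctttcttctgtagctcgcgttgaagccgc

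The cyclic AMP response element was found in the CHGA window, beginning 54 bases before the start, in none of the other windows of the 4 genes, and in 1.85% of the 35116 promoter windows of the table. A TATA motif, held by 20.4% of all windows, began 29 bases before the start in CHGA and 30 bases before it in the downstream TUBB3 window. The VIM window at chr10:17227991-17228290, not printed, also held 1 match to it, on the reverse strand. GC boxes, held by 45% of all windows, numbered 5 in the downstream TUBB3 window, 4 in INA, 1 in CHGA and 1 in VIM. The upstream TUBB3 window held 0 matches to any of the 3 motifs. A match is a description of the letters and no evidence of binding.

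Around these genes, 7 lists of related genes were counted with each gene at its brightest kept probe, where 13.2% of 10117 named genes passed (7.44% risen, 5.78% fallen). At an unadjusted p under 0.05, the background for the unadjusted counts below, 31.8% of these genes passed (16.4% higher, 15.4% lower). The median change over all of these genes was 0.00 on the log2 scale and the median absolute change 0.16. Of 18 other intermediate filament genes, 11 were measured, and in limma 0 rose and 0 fell (1 higher and 1 lower at an unadjusted p under 0.05, against 31.8% of all named genes, both directions together). The median change of the 11 was -0.05. KRT8 and KRT18, which code for the paired keratins of simple epithelia, had log2 changes of 0.31 and 0.21 (adjusted p = 0.0604 and 0.198). The further kept probes of KRT18 had 0.03 (0.831) and 0.19 (0.419). PRPH, the gene of peripherin, a filament protein of peripheral neurons, had -0.26 (adjusted p = 0.123), and the lamin gene LMNB2 had -0.16 (0.228). KRT8 passed under 5 of the 16 alternative settings and PRPH under 1.

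**Figure D3:**
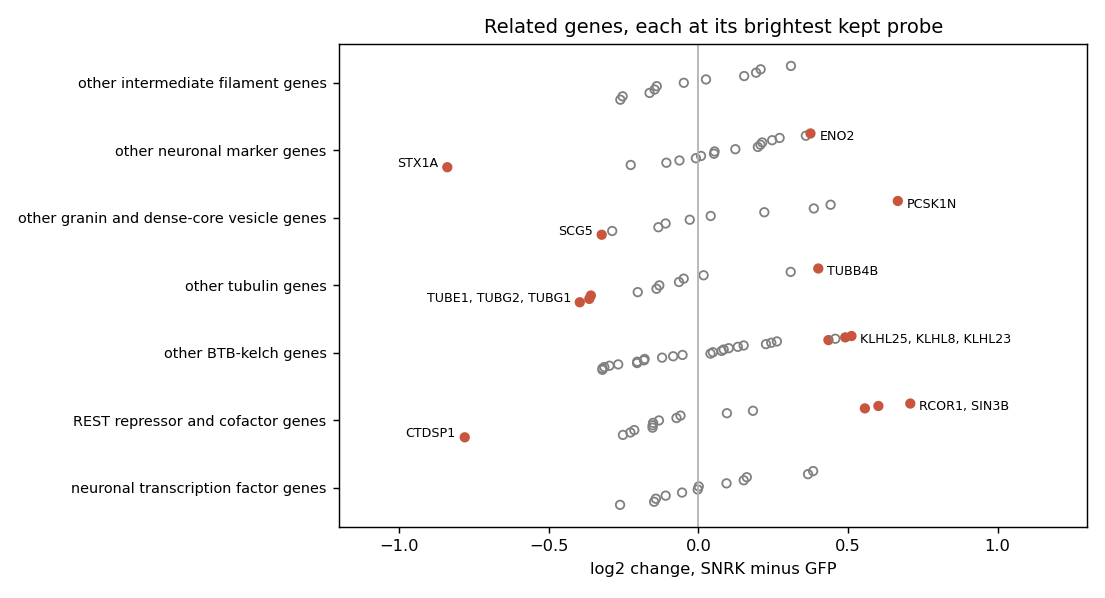
Log2 change, SNRK minus GFP (horizontal axis), of each measured gene in the 7 lists, 1 circle per gene, filled where the limma adjusted p was under 0.05, with the names of the filled genes that the text describes. Filament genes and neuronal transcription factor genes have no filled circle, and in the lists of neuronal markers, granin and vesicle genes, tubulins and REST cofactors the filled circles lie on both sides of 0.

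Of 30 other neuronal marker genes, 16 were measured, 1 rose and 1 fell (12.5%), with a median log2 change of 0.09. STX1A, the syntaxin of synaptic vesicle release, fell 1.79-fold. Its probe measured 534, 454 and 397 in the GFP group, against 303, 248 and 332 in the SNRK group, so that all SNRK arrays were below all GFP arrays (log2 change -0.84 ± 0.18 SE, limma adjusted p = 0.0250). ENO2, the neuron-specific enolase, rose by 0.37 on the log2 scale (adjusted p = 0.0493). ENO2 passed under 7 of the 16 alternative settings, and not with median scaling (0.33, limma adjusted p = 0.0658) or cyclic loess scaling (0.35, 0.0612). The microtubule-associated protein gene MAP1B (0.27, adjusted p = 0.152) and CRMP1 (0.21, 0.196), a gene of growth cone guidance, did not pass.

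Of 18 other granin and dense-core vesicle genes, 10 were measured, 1 rose and 1 fell (20.0%), with a median log2 change of 0.01. PCSK1N, which codes for the granin-like inhibitor proSAAS of the prohormone convertase PCSK1, rose 1.59-fold. Its probe gave 220, 221 and 237 for GFP 1 to 3 and 309, 345 and 301 for SNRK 1 to 3, without overlap (log2 change 0.67 ± 0.10 SE, limma adjusted p = 0.00867). SCG5, the chaperone of the convertase PCSK2, fell by 0.32 on the log2 scale (adjusted p = 0.0424). Its call ended and the change shrank to -0.13 without background correction (adjusted p = 0.140), -0.16 with the maximum likelihood background (0.115) and -0.07 in the authors' table (0.196). PAM, the peptide-amidating enzyme, had 0.44 (0.0518) and CADPS, a priming factor of vesicle release detected on 1 of 3 GFP arrays, had 0.39 (0.0602).

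Of 18 other tubulin genes, 11 were measured, 1 rose and 3 fell (36.4%), with a median log2 change of -0.13. The epsilon- and gamma-tubulin genes of the centrosome fell, TUBE1 by 0.40, TUBG1 by 0.36 and TUBG2 by 0.36 on the log2 scale (limma adjusted p = 0.0301, 0.0477 and 0.0489). TUBG1 had 3 further kept probes, with log2 changes of -0.50 (adjusted p = 0.0128), -0.11 (0.520) and 0.13 (0.527). The beta-tubulin gene TUBB4B rose by 0.40 (adjusted p = 0.0401). Tubulin genes are alike in sequence, and cross-reading between their probes was not examined.

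Of 27 other BTB-kelch genes, the family of ENC1, 26 were measured, 3 rose and 0 fell in limma (11.5%), with 7 higher and 4 lower at an unadjusted p under 0.05 (31.8% of all named genes). KLHL8 rose by 0.49, KLHL23 by 0.51 and KLHL25, a close relative of ENC1, by 0.43 on the log2 scale (adjusted p = 0.0192, 0.0413 and 0.0257). KLHL17 had 0.46 and did not pass (0.0503).

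REST represses neuronal genes outside the nervous system by recruiting corepressors. Of 15 genes of REST and its cofactors, all 15 were measured, 3 rose and 1 fell (26.7%), with a median log2 change of -0.13. SIN3B, a corepressor scaffold, rose 1.63-fold, its probe measuring 213, 212 and 220 in the GFP group, against 310, 302 and 316 in the SNRK group (log2 change 0.71 ± 0.09 SE, limma adjusted p = 0.00473). The corepressor gene RCOR1, detected on 2 of 3 GFP arrays, rose by 0.60 (adjusted p = 0.0314). The RCOR1 change was 0.24 without background correction, 0.29 with the maximum likelihood background and 0.12 in the authors' table, where the call ended (adjusted p = 0.0909). CTDSP1, a phosphatase that acts on REST, fell by 0.78 at its brightest probe (adjusted p = 0.0317) and rose by 1.46 at its other kept probe (0.0114). REST itself, named after its value was seen, had a log2 change of 0.18 (adjusted p = 0.303).

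Of 15 neuronal transcription factor genes, 12 were measured, and in limma 0 rose and 0 fell (2 higher and 1 lower at an unadjusted p under 0.05, against 31.8% of all named genes). The POU factor genes POU4F1 and POU3F2 had log2 changes of 0.38 and 0.37 (adjusted p = 0.0518 and 0.0528), and passed under 7 and 8 of the 16 alternative settings. NHLH1 had -0.26 (0.134) and MYT1 0.16 (0.220). Among the genes of the 7 lists that were called, SIN3B kept its call without each array in turn. PCSK1N lost it without GFP 2 (log2 change 0.63, adjusted p = 0.0527). STX1A lost it without GFP 1 (-0.73, 0.10), GFP 2 (-0.86, 0.0850) or SNRK 1 (-0.88, 0.0754), and the other called genes named from the lists each lost it without GFP 1, GFP 2 or SNRK 1 (adjusted p from 0.0565 to 0.174). All of these but KLHL8 and CTDSP1 also lost it without SNRK 2 (0.0622 to 0.117), CTDSP1, SCG5, TUBB4B, TUBE1 and TUBG2 without GFP 3 (0.0519 to 0.0802), and ENO2 without SNRK 3 (0.0595).

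Markers of other cell types were counted as a check of the labelled line. Of 13 kidney epithelium markers, 5 were detected on at least 1 array. EPCAM and WT1 were detected on all 6 arrays, while CDH1, CDH16 and PAX8 were among 8 not detected on any. The sum over all probes of the 13 was 1990 to 2116 on the GFP and 2072 to 2233 on the SNRK arrays. As many probes at the median of the undetected would give 1409 to 1528. The brightest EPCAM probe alone gave 562 to 604 on the GFP and 620 to 640 on the SNRK arrays. Of 9 adrenal chromaffin and sympathetic markers, cells that hold much CHGA and CHGB, GATA3 was detected on all 6 arrays, while TH, DBH, PHOX2A, HAND2, SLC18A1 and SLC18A2 were among 7 detected on none. The summed intensity of this list was 880 to 996 on the GFP arrays and 926 to 989 on the SNRK arrays, against 793 to 860 for as many probes at the median of the undetected. Of 8 glia markers, 4 were detected on all 6 arrays, MBP, OLIG1 and OLIG2 among them. ALDH1L1, AQP4 and S100B were among those detected on none. In limma 0 of the 4 detected glia markers passed (1 higher and 0 lower at an unadjusted p under 0.05). The sum over all probes of the 8 glia markers was 1677 to 1802 on the GFP and 1823 to 1914 on the SNRK arrays, against 969 to 1051 for as many probes at the median of the undetected. The brightest MBP probe alone gave 493 to 526 on the GFP and 496 to 535 on the SNRK arrays. Of 9 fibroblast markers COL3A1 was detected on all 6 arrays (sum over the whole list 1030 to 1123 and 1100 to 1189, background 969 to 1051), and of 7 leukocyte markers CD68, which many cell types hold in lysosomes (sum over the whole list 873 to 981 and 883 to 958, background 793 to 860). On at least 1 array 2 of the 9 and 2 of the 7 were detected. COL1A1, DCN, LUM, PTPRC and CD3E were among those detected on none. CD68 fell by 0.51 on the log2 scale (limma adjusted p = 0.0457, lost without GFP 1, GFP 2, SNRK 1, SNRK 2 or SNRK 3, with adjusted p up to 0.143). The part of these markers in the changes of TUBB3 and CHGB was not tested.

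**Figure D4:**
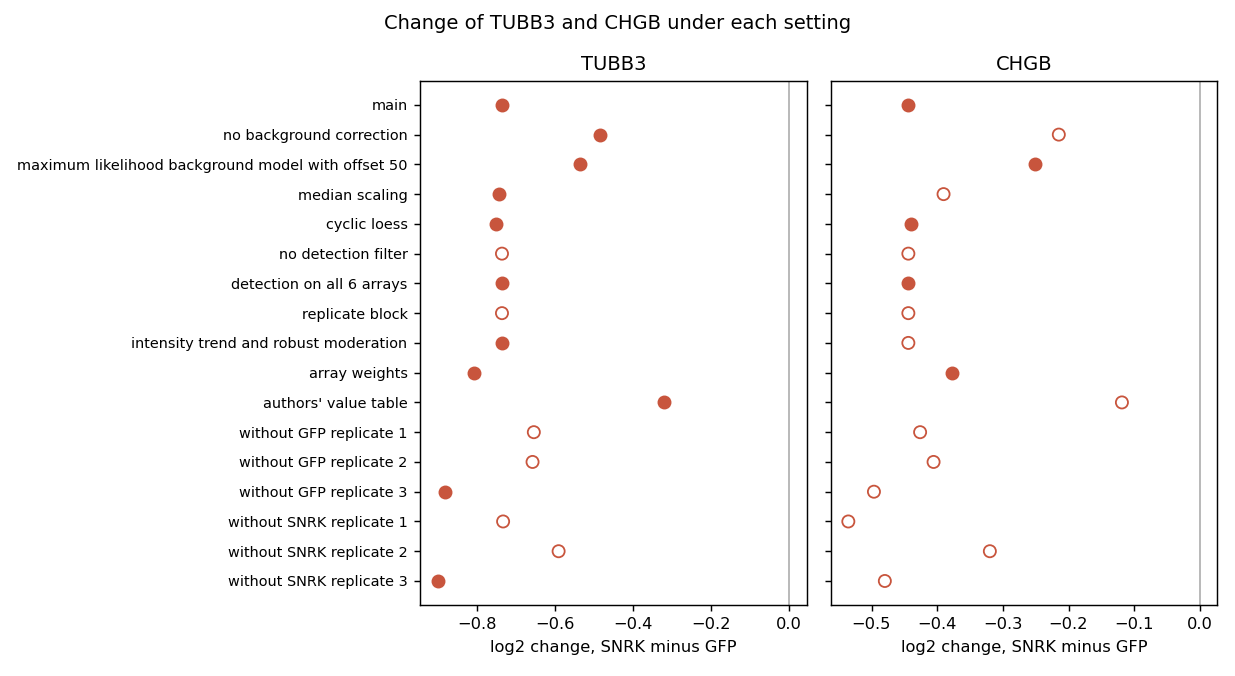
Log2 change, SNRK minus GFP (horizontal axis), of TUBB3 and CHGB under the reported setting (top row) and 16 alternatives, filled where the limma adjusted p was under 0.05. All values of both genes lie below 0, TUBB3 is filled in 10 alternatives and CHGB in 4, and the authors' own values give the smallest changes (-0.32 and -0.12).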

How the data were processed

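The authors deposited a table of intensity, on a linear scale and not normalized per the file headers, with a detection p-value per probe and array. They also deposited an intensity table of whole numbers whose median is 170 on all 6 arrays. Its ranks correlate above 0.999 with the same arrays. The equal medians point to normalization between arrays, by a method not given in the sources used here. Whether background was removed is not known. The submitters' processing notes name lumi. Intensities were corrected and quantile normalized with neqc (offset 16) of limma 3.58.1 in R 4.3.3 and taken to log2. Probes with a detection p under 0.01 throughout 1 or both groups (3 arrays each) were kept. The groups were compared with lmFit and eBayes, two-sided, with Benjamini-Hochberg adjustment over 14964 kept probes. The number of arrays limits the precision. The fit was tested on simulated data with independent noise for each probe and array. Such data hold no shared array effects, so that test does not cover those seen here.

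Current names came from RefSeq GRCh38.p14 (18953 probes by symbol, 2810 by older symbol). Named were all 9 genes, the 4 genes of each list with the smallest p, and the 3 profiles nearest TUBB3, except genes that are not reported here but stay in the list counts. The members and lists were chosen with earlier results of these data known. Promoters are from RefSeq. Same-numbered arrays were checked for pairing and did not deviate together, which cannot exclude a pairing. Alternatives were other background models, scalings, filters, moderation, array weights, the authors' table, the replicate block and each array left out.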

Additional observations from a re-analysis of the deposited data

How the results depend on the processing

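Across 16 alternatives, 0 of the 9 genes rose, and TUBB3 and CHGB stayed below 0. The number of these genes that fell, 2 as reported, was 1 without background correction, with median scaling, with intensity trend and robust moderation and from the authors' value table, 0 without the detection filter, and 0 to 1 with 1 array left out. Over all tested probes the share called, 12.9% as reported, was 17.4%, 13.5%, 18.2% and 14.9% under these settings in turn. It was 1.37% without the detection filter and 1.95% to 17.5% with 1 array left out. TUBB3 passed in 10 of 16 (adjusted p 0.00386 to 0.130). Its log2 change was -0.74 without the filter (adjusted p = 0.106), where 48701 probes are tested, and -0.90 to -0.59 with 1 array left out. It was -0.49 without background correction and -0.32 in the authors' table, both called. CHGB passed in 4 of 16 (0.0228 to 0.163). It did not pass without background correction (-0.21), with median scaling (-0.39), without the filter (-0.44), with trend and robust moderation (-0.44, 0.0502) or in the authors' table (-0.12), and ran from -0.54 to -0.32 with 1 array left out. CHGA moved to -0.12 in the authors' table, INA to 0.07 and NEFM to -0.03, and without background correction INA had 0.13 and NEFM -0.07. With 1 array left out, VIM ran from -0.0246 to 0.13 and ENC1 from -0.0109 to 0.10, the sign turning without SNRK 1 for VIM and without SNRK 3 for ENC1. MBP, at 0.03 as reported for its brightest probe, turned to -0.02 with median scaling and to -0.005 with array weights. Its other kept probe had 0.44 under the reported setting and did not pass (limma adjusted p = 0.0757). The causes were not tested.

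With the replicate block, 0 of the 9 genes fell, TUBB3 having -0.74 (adjusted p = 0.0812) and CHGB -0.44 (0.0961). Over all kept probes the calls went from 1030 risen and 907 fallen to 374 and 357. The labels do not say whether the numbers pair the arrays. Deviations from the group means correlated at -0.06, -0.13 and -0.30 for numbers 1, 2 and 3. For arrays of unlike number they correlated at -0.21 to 0.29. Deviations within a group of 3 sum to 0, so these values are tied to each other and cannot exclude a pairing.

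Counts over all kept probes moved with the array left out, from 124 risen and 172 fallen without GFP 2 to 1399 and 1263 without SNRK 3. Array weights gave 2193 and 2073, and no detection filter 349 and 320. The share of all tested probes called ran from 1.37% without the detection filter to 28.5% with array weights. It was 17.4% both without background correction and with the maximum likelihood background, and 14.9% in the authors' table. The list counts below stand beside this moving background. The related lists held 0 to 7 risen and 0 to 4 fallen genes under any alternative. BTB-kelch genes had 0 to 7 risen (6 without background correction, with the maximum likelihood background and in the authors' table) and 0 to 2 fallen, REST cofactors 1 to 3 and 0 to 4, tubulins 0 to 2 and 0 to 4, vesicle genes 0 to 4 and 0 to 2, neuronal markers 0 to 2 and 0 to 1, filament genes 0 to 1 and 0 to 1, and neuronal transcription factors 0 to 2 and 0. In the authors' table, whose handling of background is not known here, several called changes shrank by over 1.5 times. Still called were -0.49 (STX1A), 0.21 (ENO2), 0.33 (PCSK1N), -0.24 (TUBE1), -0.20 (TUBG2), 0.17 (KLHL25), 0.34 (SIN3B), 0.29 (SNRK) and -0.21 (TMEM131L). No longer called were -0.07 (SCG5), 0.12 (RCOR1), -0.20 (GNG7) and -0.17 (CD68). Without the detection filter PCSK1N, KLHL8 and SIN3B were the called list genes, of those named, that passed. CD68 was called or not (1 or 0), and the other marker lists had at most 1 call. On the GFP arrays NEFM, CHGB and CHGA read at most 1.81 times the median of the undetected probes, and INA at most 1.84 times. The changes of all of these genes were smaller without background correction and in the authors' table than as reported.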
